A study of Danio rerio with 12 samples.

Results

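The genes described here are the BCL2 family, the caspases and the inhibitors of apoptosis in macrophage-lineage cells of the zebrafish larval head. They were chosen by a rule on gene names, set with earlier results of these data known. The rule took names that begin with *bcl2*, *mcl1*, *bax*, *bak1*, *bok*, *bik*, *bbc3*, *pmaip*, *bmf*, *birc*, *xiap*, *cflar*, *apaf1*, *diablo*, *endog*, *aifm* or *casp* with a digit, or that equal *bid*, *bad* or one of their duplicates. Of the 22962 genes in the deposited table, 51 had such a name. A mean of at least 1 CPM over the 9 libraries was found for 46 of them, and these were tested together with all other genes above that limit, 16347 in total. CPM are read counts scaled to a common library size, here with the TMM factor of each library, which evens out differences in composition.

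Apoptosis is controlled at the outer mitochondrial membrane by the BCL2 family. Antiapoptotic members such as Mcl1 and Bcl2 hold the pore-forming effectors Bax and Bak in check, and BH3-only proteins relieve this block. Cytochrome c then leaves the mitochondria and assembles with Apaf1 and caspase 9, which activates the executioner caspases. Death receptors reach the same executioners through caspase 8, and this step is opposed by the inactive caspase homologue FLIP, which *cflara* and *cflarb* encode. Inhibitor of apoptosis proteins (IAPs) bind caspases or the signalling complexes upstream of them. In mammals, the survival of macrophages and other myeloid cells depends on such antiapoptotic proteins, several of which are known targets of NF-κB.

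The libraries compared were 3 from injured larvae (replicates 1, 2 and 4) and 6 from sham larvae. All larvae carried the *mpeg1*:GFP transgene, in which the *mpeg1* promoter drives GFP in microglia and peripheral macrophages, and were 4 days post fertilisation (dpf) old. In the injured group, the optic tectum was pierced with a metal pin, and heads of both groups were collected 2 h post injury (hpi). Each library was made from GFP+ cells sorted from about 180 pooled larvae, so that p-values measure the spread between pools. The labels also list injury replicates 3, 5 and 6, which the authors left out for high duplication and low mapping rates and which were not analysed here.

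The injury libraries held 6754699 to 7156275 reads on genes, the sham libraries 6868772 to 8180104. Depending on the library, 0.349 to 0.466 CPM stood for 3 reads. This level is given for orientation, and testing in the main fit rested on the mean of at least 1 CPM alone. Sham replicate 3 had 0 reads for 15.3% of the genes, against 12.7 to 13.1% in the injury libraries and 7.77 to 11.8% in the other sham libraries, and results without it are given below. Markers of the sorted lineage were abundant, with 2567 to 2749 CPM of *mpeg1.1* at 2 hpi against 2299 to 2731 CPM in sham. The summed level of 12 macrophage-lineage markers was 11186 to 12296 CPM at 2 hpi and 9357 to 10895 CPM in sham, without overlap. That of 10 microglia markers overlapped, with 14061 to 17870 CPM at 2 hpi and 11978 to 16355 CPM in sham. Markers of neutrophils were also present, with a summed level over 9 genes of 7185 to 9716 CPM at 2 hpi and 6925 to 9433 CPM in sham. Single genes of this list moved in opposite directions, with a log2 fold change (injury over sham) from -0.33, that of *mpx*, to 2.18. It was above 0 for 4 of the 9 genes and below 0 for 5, so the sum does not show whether neutrophil content changed. Markers of neurons summed to 68.5 to 97.9 CPM at 2 hpi and 60.03 to 126 CPM in sham. No gene of these marker lists that was found in the table was at 0 in every library. The part of any shift in cell composition in the results below was not tested, and in such bulk libraries a change in the number of cells of one type and a change in RNA per cell cannot be told apart.

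After injury, transcripts of 3 antiapoptotic genes rose in the sorted cells at an adjusted p below 0.01 (limma with Benjamini-Hochberg adjustment, as for all adjusted p-values here unless another tool is named). They were the Mcl1 homologue *mcl1b*, the Bcl2 homologue *bcl2a* and the FLIP homologue *cflarb*, each more than 2-fold higher at 2 hpi in the fit. No caspase and no BH3-only gene described here reached an adjusted p below 0.05 in this fit, although the BH3-only gene *bmf2* did so in 3 alternatives given below. The gene for the proapoptotic effector Bax, *baxa* (ENSDARG00000020623), was higher at an adjusted p below 0.05 (log2FC 0.74, adjusted p = 0.0269). Of the 46 members, 3 were called as higher and 0 as lower at an adjusted p below 0.01, against 2.68% of all genes tested in either direction and 2.09% as higher. At an adjusted p below 0.05, 8 members were higher, against 3.55% of all genes, and 1 was lower, against 1.96%. An unadjusted p below 0.05 was found for 16 members, against 17.4% of all genes. The median log2 fold change (log2FC, injury over sham, on the log2(CPM + 0.5) scale, which understates changes of low genes) was 0.20 over the 46 members and -0.02 over all genes tested. All 3 injury libraries lay above all 6 sham libraries for 8 members, against 5.68% of all genes, and below them for 3 members, against 4.55% of all genes.

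**Figure D1:**
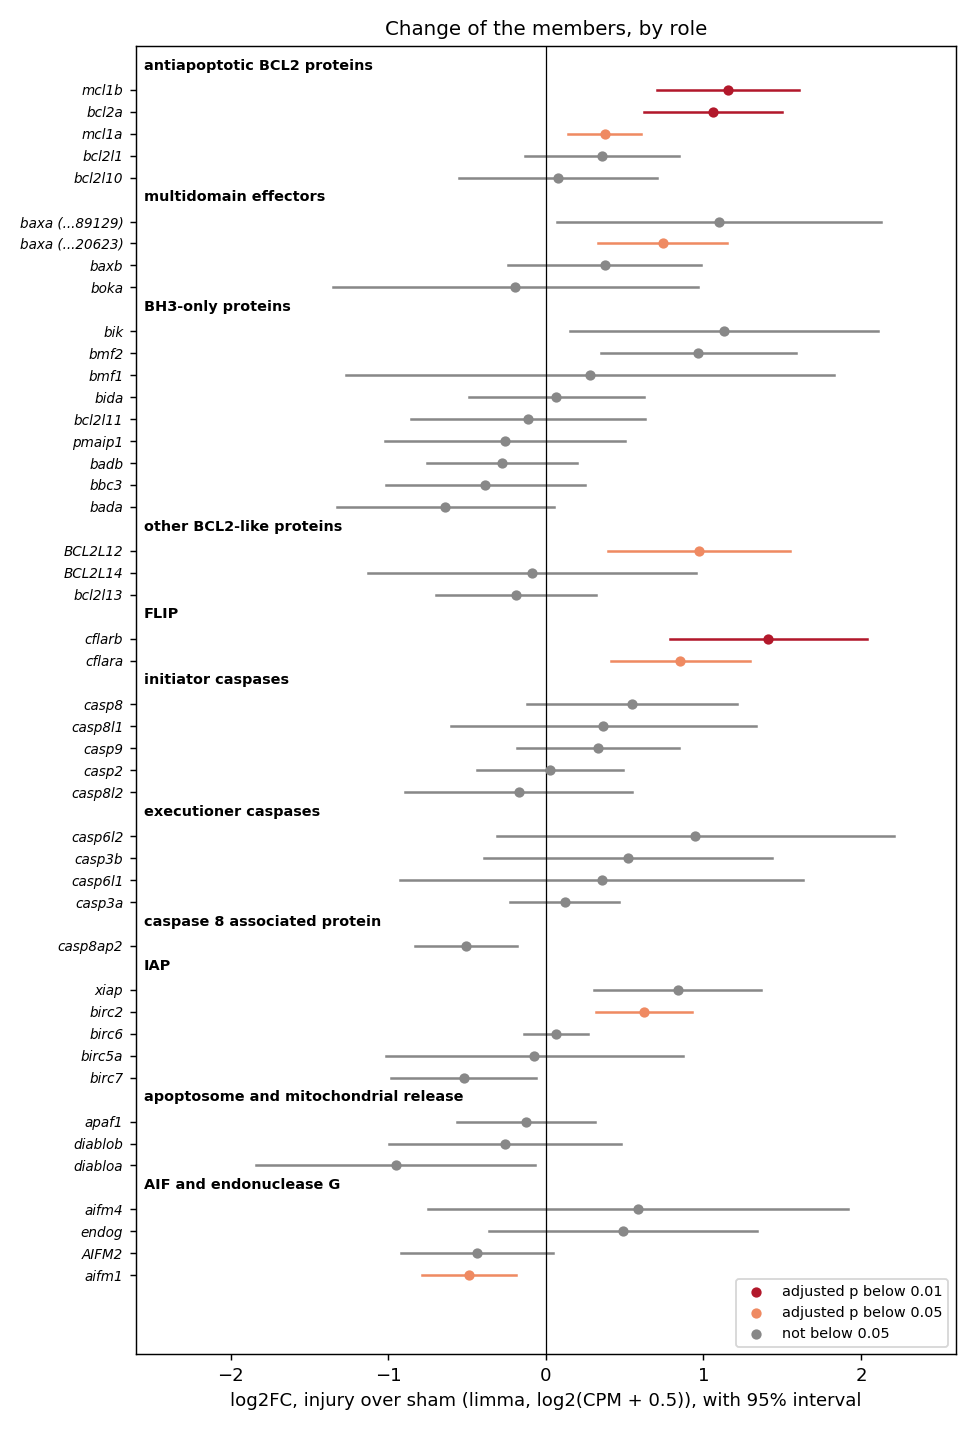
Log2FC of the members tested and described here (x axis, injury over sham, points) with its 95% interval (lines), grouped by role and coloured by adjusted p. The points of *mcl1b*, *bcl2a* and *cflarb*, called at 0.01, lie above 1, whereas the intervals of all caspases shown include 0.

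Among the antiapoptotic BCL2 proteins, 6 genes were found, of which 5 were tested. All 5 had a log2FC above 0 in the main fit, against 7841 of 16347 genes over all. The level of *mcl1b* (ENSDARG00000008363), a duplicate of the gene for the short-lived survival factor Mcl1, was 52.8, 75.5 and 50.9 CPM in injury replicates 1, 2 and 4. In the sham libraries it was 17.8 to 33.8 CPM, with a median of 27.2 CPM. The groups did not overlap, and injury replicate 2 was the highest library. The log2FC was 1.16 (standard error 0.22, adjusted p = 0.00161), a fitted 2.23-fold difference. Between 347 and 486 reads stood behind each injury value and between 145 and 240 reads behind each sham value.

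The other duplicate, *mcl1a* (ENSDARG00000009779), rested on at least 1960 reads in every library. It lay at 375, 382 and 385 CPM in the 3 injury libraries, against 256 to 337 CPM in sham with a median of 295 CPM. Its injury values were close together and all above the highest sham library, replicate 1. With a log2FC of 0.37 (standard error 0.11, adjusted p = 0.0498), *mcl1a* passed the looser threshold of 0.05 by a narrow margin. It missed this threshold with replicate number as a block (log2FC 0.29, adjusted p = 0.16) and with scaling by library size alone (log2FC 0.26, adjusted p = 0.21). The gene also missed it with edgeR's quasi-likelihood test (adjusted p = 0.0575) and without a low-value filter (adjusted p = 0.0733). With limma-voom *mcl1a* passed (adjusted p = 0.0405). The block fit draws its log2FC only from replicate numbers 1, 2 and 4, since the other sham libraries have no injury library of their number. The ratio of *mcl1b* to *mcl1a* within a library was 0.141, 0.198 and 0.132 at 2 hpi and 0.0526 to 0.114 in sham, with a sham median of 0.0924. This ratio did not overlap between the groups, and the difference between the log2FC of both genes was not tested otherwise. Of the other duplicate ratios computed, that of *diabloa* to *diablob* did not overlap either, with 0.241 to 0.264 at 2 hpi and 0.272 to 1.08 in sham. Those of *cflarb* to *cflara*, *casp3b* to *casp3a* and *bada* to *badb* overlapped.

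Expression of *bcl2a* (ENSDARG00000094704), the zebrafish homologue of *BCL2*, was 49.5, 48.6 and 84.02 CPM in the injury libraries. Its sham values were 22.8 to 35.2 CPM, with a median of 28.1 CPM. Injury replicate 4 was highest for this gene, and the lowest injury library lay above all sham libraries. The log2FC was 1.06 (standard error 0.21, adjusted p = 0.00286), or 2.09-fold on the linear scale. The gene for Bcl-xL, *bcl2l1*, had a log2FC of 0.35 with a 95% interval of -0.13 to 0.84 (adjusted p = 0.476). For *bcl2l10*, another antiapoptotic homologue, the log2FC was 0.08 with an interval of -0.55 to 0.71. It fell below 0 with scaling by library size alone (-0.035), with the replicate block (-0.024) and without injury replicate 4 (-0.027). The duplicate *bcl2b* averaged 0.341 CPM over the 9 libraries and was not tested.

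**Figure D2:**
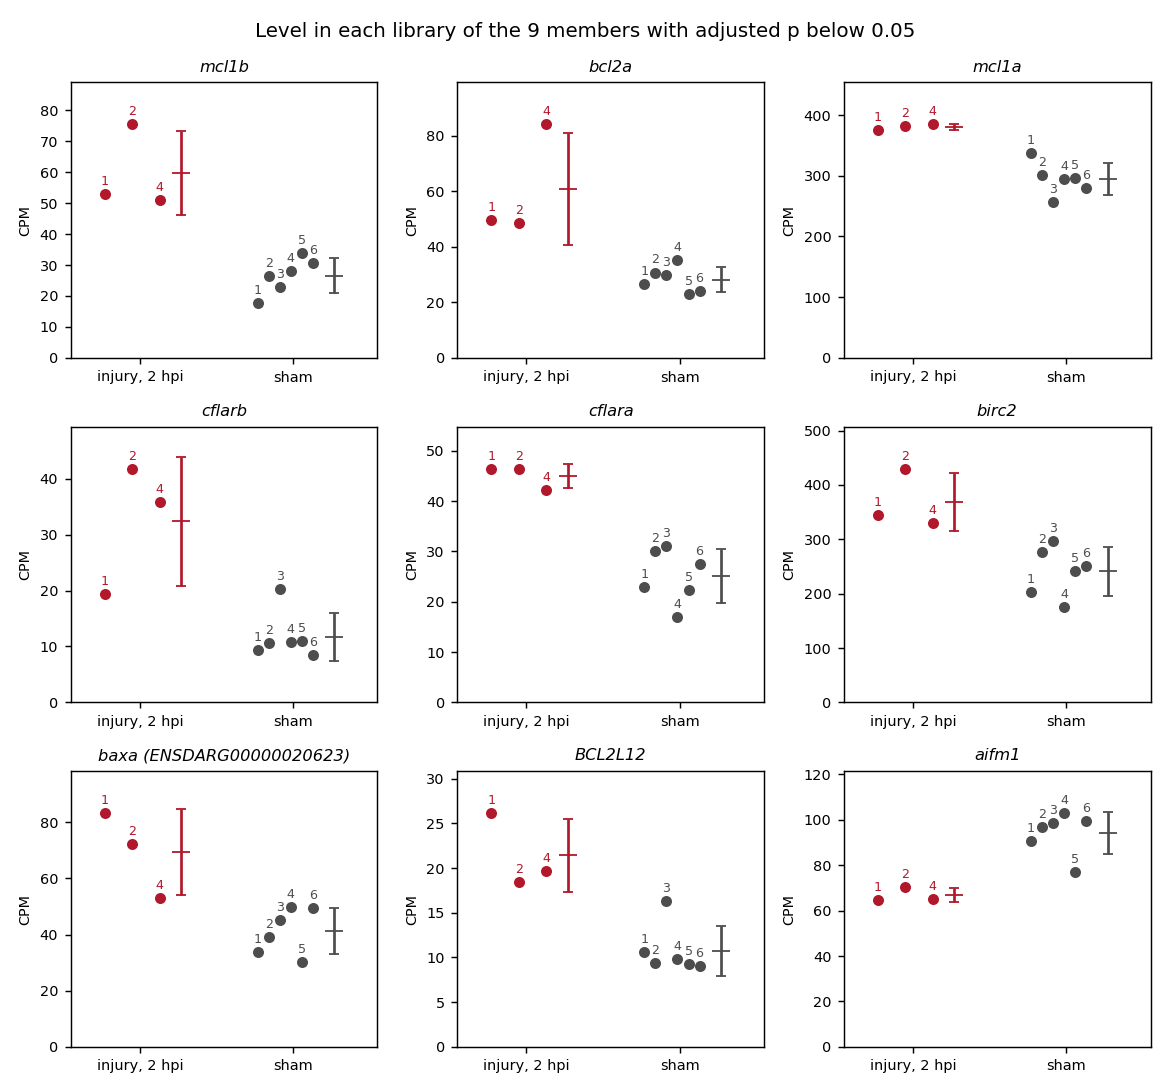
Level in CPM (y axis, from 0) of the 9 members with an adjusted p below 0.05, with 1 point per library labelled by its replicate number, for injury at 2 hpi (left, n = 3) and sham (right, n = 6), beside the mean and SD. In 8 of the 9 panels the groups do not overlap, whereas for *cflarb* injury replicate 1 at 19.4 CPM lies below sham replicate 3 at 20.3 CPM.

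Of the FLIP genes, *cflarb* rose after injury at the threshold of 0.01, and *cflara* was higher at the looser threshold of 0.05. FLIP resembles caspase 8 without its catalytic activity and competes with it for the adaptor Fadd at death receptors. For *cflarb* (ENSDARG00000074802), the injury libraries had 19.4, 41.8 and 35.9 CPM, and the sham libraries 8.496 to 20.3 CPM with a median of 10.7 CPM. The log2FC of 1.41 (standard error 0.30, adjusted p = 0.00519) was the highest among all 46 members tested. The groups overlapped through injury replicate 1 and sham replicate 3, whose levels differed little, and 5 of the 6 sham libraries were at or below 10.99 CPM.

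The level of *cflara* (ENSDARG00000055966) was more even within the injury group, at 46.3, 46.4 and 42.2 CPM, against 16.9 to 31.1 CPM in sham with a median of 25.2 CPM. These groups did not overlap. Its log2FC was 0.85 (standard error 0.21, adjusted p = 0.0178). Within a library, the ratio of *cflarb* to *cflara* was 0.420, 0.900 and 0.851 at 2 hpi and 0.310 to 0.651 in sham. Injury replicate 1 thus had a ratio within the sham range, while the other injury libraries lay above it.

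Of the 5 IAP genes, *birc2* was higher at the looser threshold and the others did not pass it. The product of *birc2* (ENSDARG00000044619), cIAP1, is a ubiquitin ligase of TNF receptor signalling. It was measured at 345, 430 and 330 CPM in the injury libraries, against 175 to 297 CPM in sham with a median of 246 CPM. All injury libraries lay above all sham libraries, and the log2FC was 0.62 (standard error 0.15, adjusted p = 0.0122). At least 1283 reads stood behind each value of *birc2*.

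The IAP best known as a direct caspase inhibitor, *xiap* (ENSDARG00000016143), did not pass the looser threshold. It had 49.7, 52.6 and 43.5 CPM in the injury libraries, against 17.7 to 51.6 CPM in sham with a median of 23.6 CPM. The groups overlapped through sham replicate 3, which had 51.6 CPM, while the next highest sham library had 33.5 CPM. The log2FC of *xiap* was 0.84 (standard error 0.26, adjusted p = 0.0578). With replicate number as a block its adjusted p was 0.0131, but sham replicate 3 has no weight in that fit. When only genes averaging 5 CPM or more were tested, it was 0.0439. Sham replicate 3 was also the highest sham library for *cflarb*, *cflara*, *birc2* and *BCL2L12*, and the highest of all 9 for *birc7*, at 82.3 CPM.

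Of all members, *birc6*, which encodes a giant IAP with ubiquitin-conjugating activity, varied least between sham libraries, with a coefficient of variation of 3.88%. It had 520, 547 and 534 CPM at 2 hpi and 477 to 531 CPM in sham. The 95% interval of its log2FC, -0.14 to 0.27, lay close around 0. For *birc7*, the homologue of livin, the log2FC was -0.52 (adjusted p = 0.207), with 31.96 to 39.1 CPM at 2 hpi and 33.96 to 82.3 CPM in sham. The survivin gene *birc5a*, which acts in mitosis, had 2.64 to 6.53 CPM at 2 hpi and 1.70 to 7.24 CPM in sham, with an interval of the log2FC of -1.02 to 0.87.

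Among the multidomain effectors, which form the mitochondrial pore, *baxa* was higher at 2 hpi at the looser threshold. The name *baxa* stood for 2 gene identifiers. The one with more reads, ENSDARG00000020623, had 83.2, 72.2 and 53.1 CPM in the injury libraries, against 30.3 to 49.97 CPM in sham with a median of 42.3 CPM. Injury replicate 4 lay close above the highest sham library, and the groups did not overlap. The log2FC was 0.74 (standard error 0.20, adjusted p = 0.0269). With scaling by library size alone its adjusted p was 0.0653, and with edgeR 0.0281.

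The second identifier named *baxa*, ENSDARG00000089129, had 5.01, 4.81 and 2.49 CPM at 2 hpi, against 0.653 to 2.25 CPM in sham with a median of 1.81 CPM. These values rested on 5 to 33 reads per library. The log2FC was 1.1 with an interval of 0.07 to 2.13 (adjusted p = 0.246). How reads were shared between both identifiers is not given in the sources used here, so that neither value can be assigned to one copy with certainty. For *baxb*, the log2FC was 0.37 (interval -0.24 to 0.99), and for *boka*, a Bok homologue with 0.911 to 5.12 CPM over all libraries, it was -0.19 (interval -1.35 to 0.97). Its duplicate *bokb* averaged 0.714 CPM and was not tested.

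The BH3-only proteins, which sense stress and antagonise the antiapoptotic members, were all tested. Of the 9 genes, 4 had a log2FC above 0 and 5 below 0, none had an adjusted p below 0.05, and 2 had an unadjusted p below 0.05. The lowest adjusted p was that of *bmf2* (ENSDARG00000041414), whose mammalian homologue is released from the cytoskeleton under stress. It had 15.9, 34.5 and 28.4 CPM in the injury libraries, against 8.36 to 16.0 CPM in sham with a median of 14.3 CPM. Injury replicate 1 lay within the sham range and the other injury libraries above it (log2FC 0.97, standard error 0.30, adjusted p = 0.0603). Its adjusted p was below 0.05 with DESeq2 (0.0162), when only genes averaging 5 CPM or more were tested (0.0465) and without injury replicate 1 (0.0277, log2FC 1.29), and it was 0.292 without injury replicate 2.

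For *bik*, which encodes a BH3-only protein of the endoplasmic reticulum in mammals, the log2FC was 1.13 (standard error 0.47, adjusted p = 0.199), with 4.19 to 8.65 CPM at 2 hpi and 1.27 to 5.71 CPM in sham. The p53 targets *bbc3* (Puma) and *pmaip1* (Noxa) had a log2FC of -0.38 (interval -1.01 to 0.25) and of -0.26 (interval -1.02 to 0.50). The highest mean level in this role was that of *badb*, with 27.0, 33.1 and 17.4 CPM at 2 hpi and 22.1 to 37.2 CPM in sham. Its log2FC was -0.28 (interval -0.75 to 0.20), and that of its duplicate *bada* -0.64 (interval -1.32 to 0.05). For *bida*, the substrate that links caspase 8 to the mitochondria, the log2FC was 0.07 (interval -0.49 to 0.62), and for the Bim gene *bcl2l11* it was -0.11 (interval -0.85 to 0.63). The second Bmf gene, *bmf1*, had a mean of 1.09 CPM over all libraries, just above the limit for testing, and 0 reads in injury replicate 1 and sham replicate 1.

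Of the remaining BCL2-like genes, *BCL2L12* (ENSDARG00000090625) was higher at the looser threshold. Its human counterpart inhibits executioner caspases in glioma cells. It had 26.1, 18.5 and 19.6 CPM at 2 hpi, against 9.05 to 16.3 CPM in sham with a median of 9.63 CPM. Sham replicate 3 was again the highest sham library, and the groups did not overlap (log2FC 0.97, standard error 0.28, adjusted p = 0.0405). The adjusted p of *BCL2L12* was 0.0689 with scaling by library size alone, 0.0593 without a low-value filter and 0.0392 with edgeR. The log2FC of the mitophagy receptor *bcl2l13* was -0.19 (interval -0.69 to 0.32), that of *BCL2L14* was -0.09 (interval -1.12 to 0.95), and *bcl2l16*, with a mean of 0.255 CPM, was not tested.

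**Figure D3:**
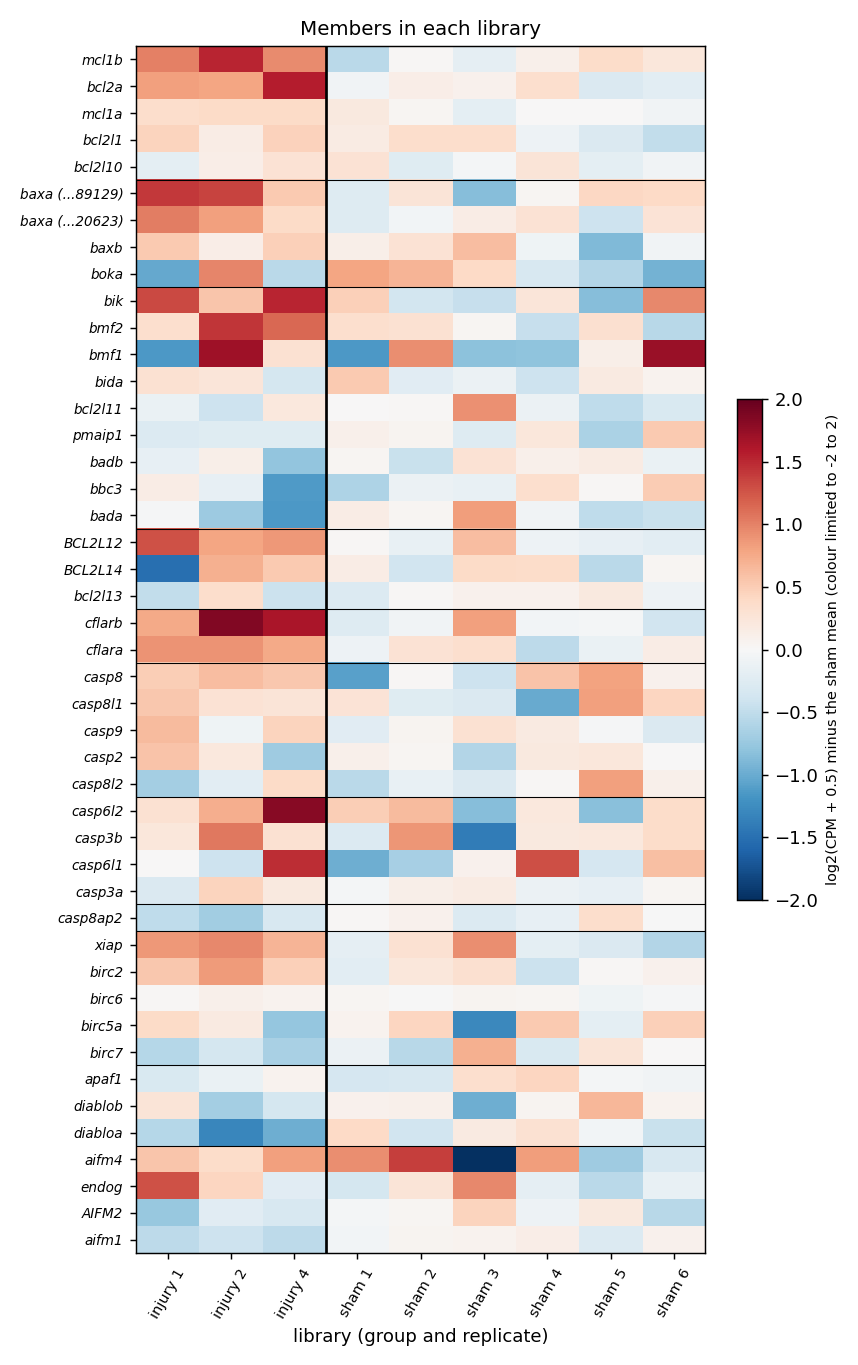
Difference of log2(CPM + 0.5) from the sham mean in each library (columns, injury left of the line, sham right of it) for the same members (rows, in blocks by role as in the plot of log2FC). The rows of *mcl1b*, *bcl2a*, *cflara* and *birc2* are above the sham mean in all 3 injury libraries, while that of *casp2* is above it in injury replicate 1 and below it in injury replicate 4.

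None of the caspases described here, the proteases that carry out apoptosis, passed either threshold. Of 5 initiator caspases tested, the lowest adjusted p was 0.410, that of *casp8*, and of the executioner caspases described it was 0.455, that of *casp6l2*. The level of *casp8* was 21.7, 23.8 and 22.4 CPM at 2 hpi and 6.98 to 27.2 CPM in sham with a median of 15.9 CPM, so that the injury libraries lay inside the sham range. Its log2FC was 0.55 with an interval of -0.12 to 1.22. For *casp9*, the caspase of the apoptosome, the log2FC was 0.33 (interval -0.18 to 0.85). The highest mean level among the initiators was that of *casp2*, a caspase linked to genotoxic stress, with 94.8, 74.1 and 38.7 CPM at 2 hpi and 42.5 to 74.7 CPM in sham. For *casp2*, injury replicate 1 lay above the sham range, replicate 2 within it and replicate 4 below it, and the interval of the log2FC was -0.44 to 0.49. The *casp8*-like genes had a log2FC of 0.36 (*casp8l1*, interval -0.60 to 1.33) and -0.17 (*casp8l2*, interval -0.89 to 0.55).

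Among the executioners, *casp3a*, a duplicate of the gene for caspase 3, had 54.5, 91.0 and 76.1 CPM at 2 hpi and 59.4 to 74.7 CPM in sham. Its log2FC of 0.12 had an interval of -0.23 to 0.47, so that a change of 2-fold in either direction lay outside the interval. The duplicate *casp3b* was measured at 6.23 to 11.5 CPM at 2 hpi and 1.70 to 10.1 CPM in sham, with an interval of the log2FC of -0.39 to 1.44. For *casp6l1* and *casp6l2*, with means of 1.68 and 1.14 CPM, the intervals reached 1.63 and 2.21, so that a 2-fold rise lay within both. The gene *casp6* averaged 0.501 CPM and was not tested. Over all 46 members, the 95% interval of 21 lay entirely between a log2FC of -1 and 1.

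The gene *casp8ap2* (ENSDARG00000022718) also bears a caspase name, but it encodes a protein that binds caspase 8 and acts in histone gene expression, not a protease. It had 69.5, 60.7 and 79.3 CPM at 2 hpi, against 81.5 to 126 CPM in sham with a median of 99.4 CPM. All injury libraries lay below all sham libraries, with sham replicate 3 the lowest of the sham group (log2FC -0.51, standard error 0.16, adjusted p = 0.0598). Its adjusted p was below 0.05 with DESeq2 (0.0245), with scaling by library size alone (0.0183) and without sham replicate 3 (0.0291). The same held when only genes averaging 5 CPM or more were tested (0.0434). With edgeR it was 0.0735 and with limma-voom 0.0910.

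Among the genes that act after permeabilisation of the mitochondria, the adaptor *apaf1* had 27.8, 31.5 and 36.1 CPM at 2 hpi and 27.3 to 46.6 CPM in sham (log2FC -0.12, interval -0.56 to 0.31). For *diabloa*, whose product Smac displaces IAPs from caspases, the injury libraries had 2.89, 1.55 and 2.05 CPM, all below the sham libraries with 3.203 to 6.12 CPM and a median of 4.80 CPM. Only 10 to 19 reads stood behind each injury value, and the log2FC of -0.95 (interval -1.84 to -0.07) had an adjusted p of 0.242. The duplicate *diablob* had a log2FC of -0.26 (interval -0.99 to 0.48).

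The only member that was lower at the looser threshold in the main fit was *aifm1* (ENSDARG00000058088). It encodes apoptosis-inducing factor, a mitochondrial flavoprotein that serves in the assembly of respiratory complexes and moves to the nucleus in some forms of cell death. Its level was 64.8, 70.5 and 65.1 CPM at 2 hpi, against 77.2 to 103 CPM in sham with a median of 97.8 CPM. The injury libraries lay close together and below sham replicate 5, the lowest of the sham libraries, with a log2FC of -0.49 (standard error 0.14, adjusted p = 0.0471). The adjusted p of *aifm1* was above 0.05 with edgeR (0.0510), RLE scaling (0.0512), limma-voom (0.0663) and without a low-value filter (0.0557). It was lower than in the main fit with DESeq2 (0.00956) and with scaling by library size alone (0.0118). Its relatives *AIFM2* and *aifm4* had a log2FC of -0.43 (interval -0.92 to 0.05) and 0.58 (interval -0.75 to 1.92), and *endog*, the gene for mitochondrial endonuclease G, of 0.49 (interval -0.36 to 1.34). *AIFM3* had a mean of 0.137 CPM and was not tested.

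Single genes were also tested by exact permutation of the libraries (two-sided, without adjustment). With 84 ways to choose 3 of 9 libraries, p cannot fall below 0.0119. The smallest possible p was found for *mcl1b*, *bcl2a*, *mcl1a*, *cflara*, *birc2*, *BCL2L12*, *aifm1* and both identifiers of *baxa* (exact permutation test, p = 0.0119 for each). All of these were described above as not overlapping between the groups, so this p adds no separate support. Of all genes tested, 5.68% had all injury libraries above all sham libraries and 4.55% below them. The share of all genes at the smallest possible p was not computed. For *cflarb*, *bmf2*, *casp8ap2* and *diabloa* it was 0.0238, and for *xiap* 0.0714 in the same exact permutation test.

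Calls among the members depended on single libraries. The call of *mcl1b* at 0.01 was lost without injury replicate 2 (adjusted p = 0.0245, log2FC 0.98) and that of *bcl2a* without injury replicate 4 (adjusted p = 0.0569, log2FC 0.80), and each held in the other 8 fits that left out 1 library. The call of *cflarb* held in 3 of these 9 fits. It was lost without injury replicates 2 or 4 (adjusted p = 0.0583 and 0.0505) and narrowly without sham replicates 1, 2, 4 or 5 (adjusted p = 0.01001 to 0.0121), whereas its log2FC stayed between 1.195 and 1.74. Without sham replicate 3, 6 members passed at 0.01, against 2.98% of all genes in that fit. These were *mcl1b* (log2FC 1.12, adjusted p = 0.00245), *bcl2a* (log2FC 1.08, adjusted p = 0.00312), *cflarb* (log2FC 1.58, adjusted p = 0.000895), *birc2* (adjusted p = 0.00418), *cflara* (adjusted p = 0.00948) and *xiap* (log2FC 1.02, adjusted p = 0.00431). At the threshold of 0.05, *birc2* passed in 8 of the 9 fits with 1 library left out, *cflara* in 6, *baxa* (ENSDARG00000020623) in 5, and *BCL2L12*, *aifm1* and *mcl1a* each in 1. With DESeq2 on the recovered reads, 8 members passed at 0.01, 7 higher and 1 lower, against 5.36% of all genes.

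**Figure D4:**
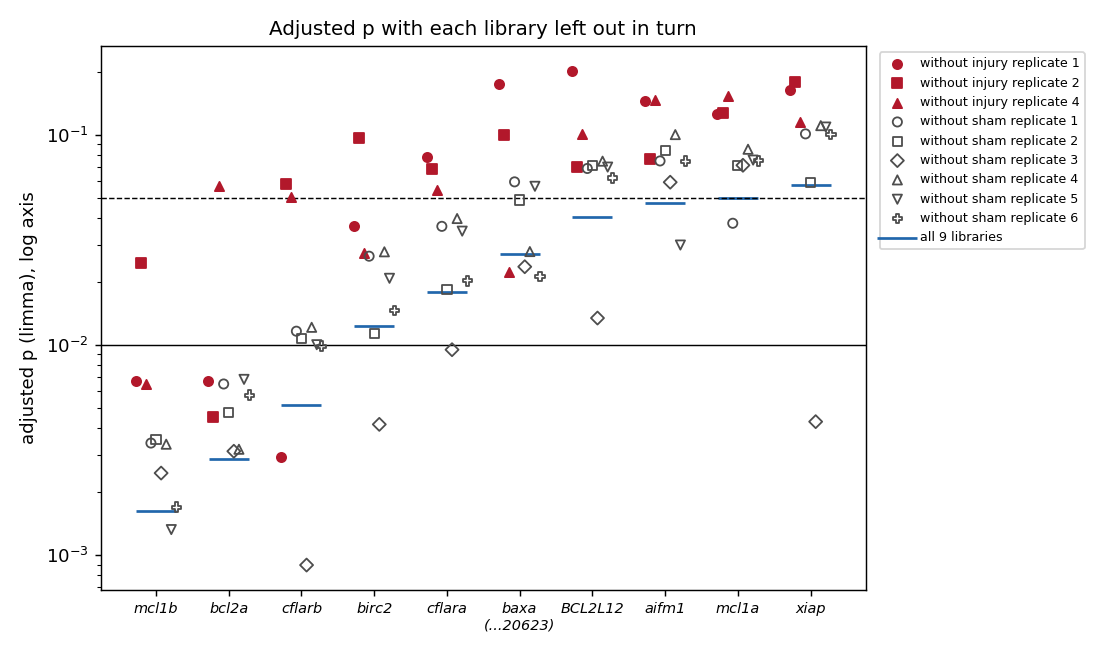
Adjusted p in limma (y axis, log scale) of 10 members with each library left out in turn (filled symbols without an injury library, open symbols without a sham library) and with all 9 libraries (bar), with lines at 0.01 (solid) and 0.05 (dashed). The symbols of *mcl1b* lie below 0.01 in 8 of 9 fits, as do those of *bcl2a*, and *xiap* falls to 0.00431 without sham replicate 3.

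Other genes of these pathways were read from 7 lists that hold no member, of which 91 genes were tested. Of these 91, 1 was called as higher and 2 as lower at an adjusted p below 0.01, close to the share of 2.68% over all genes tested, with a median log2FC of 0.04. A list of 12 tested genes was drawn from death receptors, related TNF receptors, ligands and adaptors. One of its related receptors, *tnfrsf1b*, which encodes TNF receptor 2, had 397, 393 and 430 CPM at 2 hpi, against 244 to 306 CPM in sham (log2FC 0.57, standard error 0.11, adjusted p = 0.00212). Of 19 genes of p53 and its pathway, 11 had a log2FC above 0 and 8 below 0. In this list *sesn1*, which encodes a stress-inducible inhibitor of mTORC1, was lower at 2 hpi, with 129, 140 and 115 CPM, against 261 to 354 CPM in sham (log2FC -1.32, standard error 0.12, adjusted p = 2.96e-07). Of 15 caspase substrates and nucleases, the DNA repair enzyme gene *parp1* was lower, with 64.8, 56.8 and 55.7 CPM at 2 hpi, against 79.6 to 104 CPM in sham (log2FC -0.69, standard error 0.14, adjusted p = 0.00450). For each of these 3 genes the groups did not overlap. The call of *sesn1* held in all 9 fits with 1 library left out. That of *tnfrsf1b* was lost without injury replicates 1 or 4 (adjusted p = 0.0119 and 0.0257) and with scaling by library size alone (adjusted p = 0.0122). That of *parp1* held in 3 of the 9 fits and was lost without any of injury replicates 1, 2 or 4 or sham replicates 1, 2 or 4 (adjusted p = 0.0104 to 0.0333).

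No gene was called at an adjusted p below 0.01 among 16 genes of the mitochondrial pore, cytochrome c and related BH3-like factors, 6 of necroptosis and pyroptosis, 11 of the BAX inhibitor and BAG families and 12 mitotic partners of survivin. An unadjusted p below 0.05 was found in limma for 2, 1, 0 and 1 of their genes, against 17.4% of all genes. The median log2FC of the mitotic list was -0.21, with 11 of its 12 genes below 0, against 8506 of 16347 genes over all.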

How the data were processed

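RNA of sorted GFP+ cells was amplified and sequenced in 12 samples, of which 9 were used here. The authors trimmed reads with cutadapt 1.9, aligned them to GRCz10 with STAR 2.5.2b, counted exons with featureCounts 1.5.1 and normalised with edgeR 3.20.1; strand setting and annotation release are not given in the sources used here. The authors deposited signal values, which are CPM scaled with TMM factors, after removal of genes with near-zero counts. Deposited group means, fold changes, p-values and FDR were not used. Values were whole multiples of 1 read (100% within 0.1 of a read), so that reads were recovered.

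Limma 3.58.1 (R 4.3.3) was fitted to log2(CPM + 0.5) with injury or sham as its single term, with trended variances, over every gene that averaged 1 CPM or more, with Benjamini-Hochberg adjustment over all of them and a threshold of 0.01; the script was checked on simulated counts. Members and lists were chosen with earlier results of these data known. Each injury value and the sham range are given for members with an adjusted p below 0.05. The same holds for members whose groups did not overlap at an unadjusted p below 0.05. It also holds for the member with the highest mean of each role other than the remaining BCL2-like genes and *casp8ap2*. List genes are named at an adjusted p below 0.01. The other members have a log2FC or range, except 1 that counts in the totals and is not reported here. *xiap*, *bmf2* and *casp8* were described in more detail after their values were seen. Alternatives were RLE or library-size scaling, pseudocounts of 0.1 and 1, other filters, edgeR 4.0.16, DESeq2 1.42.0 and limma-voom on recovered reads, a threshold of 0.05, a replicate block and leaving out each library. Figures were drawn with matplotlib 3.10.9.

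No reference genome of the build was used, so no positions are given. In the RefSeq annotation of another assembly (GRCz12tu), the gene spans of *diabloa*, *xiap*, *birc7*, *casp3a*, *casp8*, *apaf1* and *BCL2L12* overlap other genes, as do those of several other members; overlap of exons was not examined.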

Additional observations from a re-analysis of the deposited data

Results flagged for a closer look

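In 3 of 17 members examined, the sham library farthest from the others stood apart by Dixon's criterion. Its nominal rate is about 1 of 20 independent groups, but all 17 members share the same 6 sham libraries. The share of all genes that meets the criterion was not computed. In each of the 3 flagged members the library was sham replicate 3. It had 20.3 CPM of *cflarb*, where the other sham libraries had at most 10.99 CPM, 16.3 CPM of *BCL2L12*, where the others had at most 10.7 CPM, and 42.5 CPM of *casp2*, where the others had at least 63.9 CPM. Sham replicate 3 also had the highest share of genes with 0 reads of all libraries, 15.3%. Its TMM factor, 0.976, was the lowest of the sham group, but the injury libraries lay lower still, at 0.932 to 0.953. The part of these values in the levels above was not tested.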

How the results depend on the processing

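The 3 called members (*mcl1b*, *bcl2a*, *cflarb*) were also the ones called with RLE or library-size scaling, with pseudocounts of 0.1 and 1, with filterByExpr, with edgeR's quasi-likelihood test on the recovered reads (388 called genes in all) and with limma-voom. Library size alone moved the median log2FC of all genes by -0.11, and 57.4% of its calls over all genes were increases, against 77.9% with TMM factors and 89.3% with limma-voom. Without a filter, *cflarb* missed the threshold (adjusted p = 0.0116). The number of called members moved to 8 with DESeq2, to 9 at a threshold of 0.05 and to 5 with the replicate block. At a mean of at least 5 CPM it was 4, among 467 called genes, with *birc2* added (adjusted p = 0.00899). The number over all genes was 438, against 740 with DESeq2, 900 at a threshold of 0.05 and 619 with the block. Without each library in turn, called members numbered 1 to 6, all called genes 224 to 487, called genes of the other lists 1 to 4, and the members' median log2FC was 0.0487 to 0.28. That median was 0.20 with all libraries, 0.11 with library size alone, 0.12 without a filter or with filterByExpr, 0.0733 at a mean of at least 5 CPM and 0.12 with the replicate block.

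Replicate numbers were not taken as pairs. For its RT-qPCR the study paired cDNA made on one day, partly from sequenced samples, but the labels tie no replicate number to a day. Deviations from the group means correlated at 0.124, 0.109 and 0.0244 for numbers 1, 2 and 4. Injury replicates 1 and 2 each correlated best with the sham library of their own number. Their next highest values were 0.0632 with sham replicate 5 and 0.091 with sham replicate 6. Injury replicate 4 correlated best with sham replicate 3, at 0.0277, close to its value for sham replicate 4. Whether the numbers stand for pairs was thus not settled. In the fit with the replicate block, sham replicates 3, 5 and 6 have no injury library of their number and do not bear on the log2FC. The block fit thus differs from the main fit also in the sham libraries it compares. With the block, *birc2* and *cflara* were called besides *mcl1b*, *bcl2a* and *cflarb*. At 0.05, *mcl1a* lost its call (adjusted p = 0.16) and *xiap* gained one (adjusted p = 0.0131). Of the other lists, 5 genes were called with the block, against 3. None of the 9 members with an adjusted p below 0.05 changed its sign in any of these alternatives. For the 10 tested members under 5 CPM, the median 95% interval reached 1.099 to either side of the log2FC. For the 28 members at or above 10 CPM it reached 0.48. The parts of read depth and of spread between pools in this difference were not tested.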
